A study of Mus musculus with 14 samples.

Results

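The genes of oxygen sensing by the hypoxia-inducible factors (HIF), their transcriptional targets and the enzymes of glycolysis were examined in hippocampal RNA of neonatal mice. The set was a list of 40 gene symbols, found in the files by name. These symbols matched 41 of the 36118 rows of the count table, because Aldoa has 2 rows, and all 41 were among the 16637 genes that passed the filter on low counts. The libraries came from 14 mice of the breed C57/BL6, as the labels give it, each sampled on postnatal day 15. The groups were 4 wild-type mice in room air (WT-RA), 4 wild-type mice in 85% O2 (WT-O2), 3 GSDMD knockout mice in room air (KO-RA) and 3 GSDMD knockout mice in 85% O2 (KO-O2). Exposure ran from postnatal day 1 to day 14, so the tissue was taken after the exposure ended. The knockout is global, made with CRISPR/Cas9 as a short deletion in the fifth exon of Gsdmd, and the wild-type mice were littermates from heterozygous crosses. The series asked how the loss of gasdermin D, the pore-forming protein of pyroptosis, alters the response of the neonatal hippocampus to hyperoxia.

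Libraries held between 27272270 and 28257496 estimated counts. Rounded Gsdmd counts were 41 to 51 in WT-RA, 51 to 63 in WT-O2, 22 to 42 in KO-RA and 36 to 40 in KO-O2. They were thus lower in knockout mice, without overlap under hyperoxia and with overlap at the edge in room air. Reads were still assigned to Gsdmd in knockout mice, and gene totals do not show the deletion itself. The study reports that qRT-PCR measured no Gsdmd transcript in knockout brains (data not shown), and that immunostaining found no protein. Those are other measures than the total of reads assigned to a gene. Mouse GSD408 is WT-O2 by its title and by the name of its column, whereas its treatment field reads room air. It was analysed as WT-O2. Values without it are given beside several results, but not beside every result that it moves. Markers of neurons and of the hippocampus were present in every library, but markers of striatum, oligodendrocytes and choroid plexus were present too, at unequal levels. Whether neighbouring tissue was carried over in dissection was not tested. The sum of 7 striatal markers was 314 to 740 CPM (counts scaled to a common library size with TMM factors) in wild-type and 136 to 229 CPM in knockout libraries. The sum of 5 oligodendrocyte markers was 4176 to 16657 CPM and 2816 to 4953 CPM, and that of 8 hippocampal markers 595 to 965 CPM and 1226 to 1540.1 CPM. Choroid plexus markers summed to 36.8 and 106 CPM in knockout mice GSD489 and GSD494 and to at least 922 CPM in each of the others. In bulk tissue, fewer cells of a type and less RNA per cell cannot be told apart. Wild-type mice are numbered GSD398 to GSD408 and knockout mice GSD489 to GSD496, so genotype and the range of mouse numbers cannot be told apart either. Mice are listed below in the order GSD398, GSD399, GSD400 and GSD401 for WT-RA, GSD404, GSD405, GSD406 and GSD408 for WT-O2, GSD489, GSD490 and GSD496 for KO-RA, and GSD491, GSD494 and GSD495 for KO-O2.

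HIF is a pair of an oxygen-labile alpha subunit and a stable partner, Arnt. While oxygen is plentiful, prolyl hydroxylases of the Egln family mark the alpha subunit, the Vhl ubiquitin ligase recognizes the mark and the subunit is degraded. When oxygen falls, the pair binds short elements in DNA and raises transcription of genes for glucose uptake, glycolysis, lactate production, mitophagy and blood supply. Much of this control acts on the alpha protein, which RNA does not measure. In the brain, neurons and glia divide the work of glucose use, and several glycolytic enzymes are among the most highly expressed genes.

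The DNA core that HIF binds reads ACGTG or GCGTG, and it was searched on both strands in the 250 bases before the start site, in the RefSeq windows of build GRCm38.p6. A window was matched for 36 of the 40 symbols, and for a gene with several windows the most upstream one was used. At least 1 core was in 28 of the 36 windows (77.8%), against 10442 of 27025 windows over all RefSeq genes (38.6%). ACGTG was in 17 member windows (47.2%, against 16.5% of all) and GCGTG in 21 (58.3%, against 28.3% of all). The windows below belong to the members that had an unadjusted p below 0.05 in both hyperoxia comparisons (Ankrd37 and Ddit4) or that were called between genotypes in room air (Egln3, Ak4 and Car9). Ankrd37 lies at chr8:45999851-46000100 on the minus strand, Ddit4 at chr10:59951771-59952020 on the minus strand and Egln3 at chr12:54203875-54204124 on the minus strand. Ak4 lies at chr4:101419039-101419288 and Car9 at chr4:43506776-43507025, both on the plus strand. Each is written 5′ to 3′ along the gene and ends at the base before the start. Capitals mark the cores, which appear as CACGT or CACGC where they are on the other strand, and adjoining or overlapping cores run together.
Ankrd37: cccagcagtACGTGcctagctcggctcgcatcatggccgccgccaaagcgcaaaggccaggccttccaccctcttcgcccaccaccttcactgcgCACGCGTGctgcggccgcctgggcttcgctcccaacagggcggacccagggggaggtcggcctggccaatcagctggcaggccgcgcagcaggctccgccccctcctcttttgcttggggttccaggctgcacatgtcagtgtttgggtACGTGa
Ddit4: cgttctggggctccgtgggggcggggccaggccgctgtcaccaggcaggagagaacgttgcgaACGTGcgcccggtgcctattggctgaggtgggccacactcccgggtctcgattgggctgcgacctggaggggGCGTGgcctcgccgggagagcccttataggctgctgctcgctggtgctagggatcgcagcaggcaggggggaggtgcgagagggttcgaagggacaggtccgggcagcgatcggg
Egln3: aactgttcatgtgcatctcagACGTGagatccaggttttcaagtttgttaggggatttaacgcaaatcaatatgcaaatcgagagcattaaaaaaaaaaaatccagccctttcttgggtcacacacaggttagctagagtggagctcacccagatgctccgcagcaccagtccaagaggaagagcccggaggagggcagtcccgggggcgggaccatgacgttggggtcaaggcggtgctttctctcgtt
Ak4: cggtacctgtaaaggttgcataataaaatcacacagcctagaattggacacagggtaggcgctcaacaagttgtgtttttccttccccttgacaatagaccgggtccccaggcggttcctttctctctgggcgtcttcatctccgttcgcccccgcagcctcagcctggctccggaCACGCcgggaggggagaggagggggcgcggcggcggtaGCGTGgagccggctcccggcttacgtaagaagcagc
Car9: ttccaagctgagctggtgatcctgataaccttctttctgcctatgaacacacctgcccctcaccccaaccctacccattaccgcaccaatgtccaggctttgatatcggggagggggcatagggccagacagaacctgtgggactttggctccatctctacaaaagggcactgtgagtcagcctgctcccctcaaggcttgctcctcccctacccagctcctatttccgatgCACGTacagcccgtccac
Ankrd37 held 4 cores, the nearest of them 2 bases before the start. Car9 held 1 core, 14 bases before the start, the place of the element for which this gene is best known. Ddit4 held 2 cores, the nearer at 111 bases, Ak4 held 2, the nearer at 32 bases, and Egln3 held 1 at 225 bases. A match of letters is a description of the window and does not show that HIF binds there. The members were listed as HIF genes and glycolytic enzymes, and the RefSeq genes were not matched to them in expression or base composition. The shares are therefore no test of enrichment.

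Hyperoxia left the glycolytic enzymes close to their room air levels in both genotypes, and no member reached the threshold for a call. The thresholds for a call, those of the study, were a log2 difference of at least 0.32 in size (a change by 25%), an unadjusted edgeR p under 0.05 and a q under 0.1. Here q stands for p adjusted by the Benjamini-Hochberg method across all 16637 genes. In WT-O2 vs. WT-RA, 0 of 41 members were called by edgeR (0.643% of all tested genes were), with 6 at an unadjusted p below 0.05 and 1 called by DESeq2, Ddit4. In KO-O2 vs. KO-RA, 0 of 41 were called by edgeR (0.012% of all), with 5 at an unadjusted p below 0.05 and 0 called by DESeq2. The median log2 fold change over the members was 0.036 in wild-type and 0.010 in knockout mice, against -0.0058 and -0.0020 over all tested genes. Without mouse GSD408 the wild-type median was -0.014 over the members (-0.0064 over all tested genes). With GSD408 counted as room air it was -0.056 (-0.0098 over all). Of the members, 26 of 41 were on the higher side in WT-O2 (63.4%, against 48.3% of all tested genes). In KO-O2, 21 of 41 were (51.2%, against 49.4% of all).

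Members that came nearest to a call were mostly higher after hyperoxia. At an unadjusted p below 0.05 in wild-type mice, 5 were higher, Hk2, Pfkfb3, Ak4, Ankrd37 and Ddit4 (5.69% of all tested genes were higher at this p), and 1 was lower, Car9 (6.5% of all). In knockout mice, 5 were higher, Epas1, Ankrd37, Ddit4, Ero1a and Kdm3a (2.29% of all), and 0 were lower (2.57% of all). The values of the WT-O2 and WT-RA mice did not overlap for 1 member, Car9 (5.99% of all tested genes did not overlap). Those of KO-O2 and KO-RA did not overlap for 11 members, 10 of them higher in KO-O2 (11.8% of all in either direction).

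**Figure D1:**
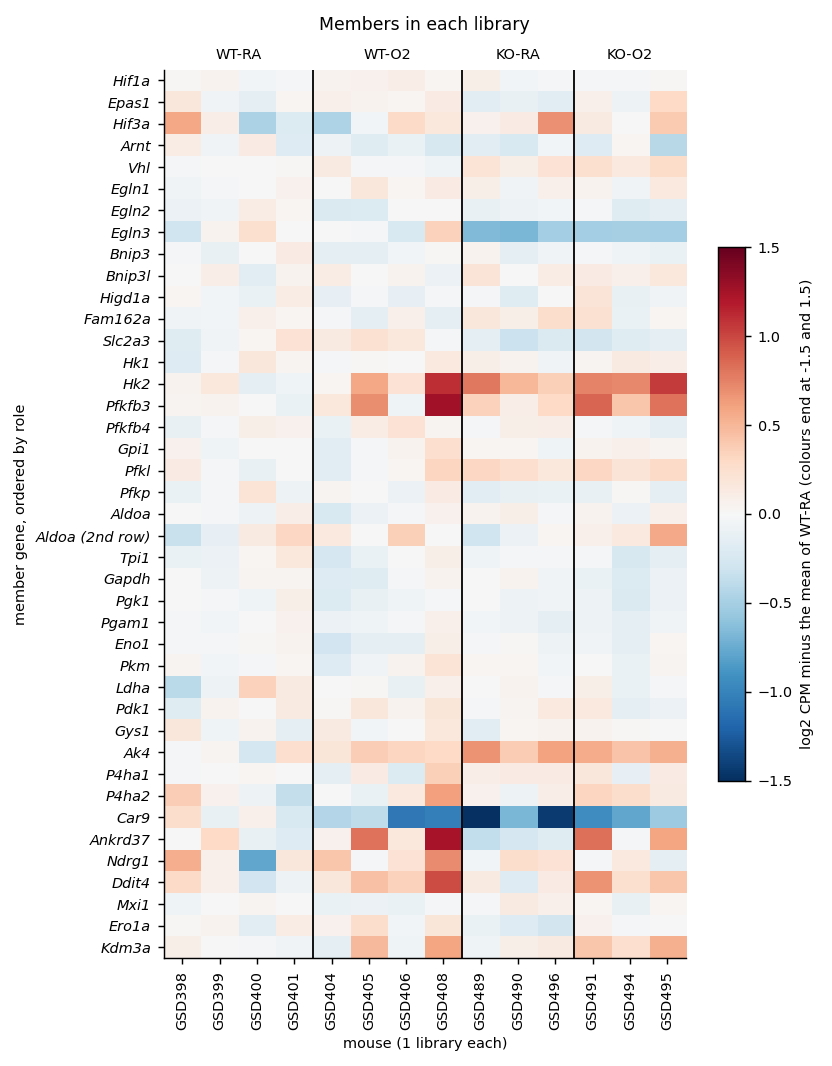
Log2 CPM of each member row (vertical axis, ordered by role) in each of the 14 libraries (horizontal axis, grouped by genotype and exposure), minus the mean of the 4 WT-RA libraries. Most glycolytic rows are pale, whereas Hk2, Pfkfb3, Ankrd37 and Ddit4 are darkest red in WT-O2 mouse GSD408, Egln3 and Car9 are blue in all 6 knockout libraries, and Ak4 is red in them.

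The HIF subunits showed no called difference. Hif1a, the main oxygen-labile subunit, was at 98.9, 102, 95.1 and 95.8 CPM in WT-RA and 102, 103, 104 and 100.2 CPM in WT-O2. It was at 104, 94.9 and 96.2 CPM in KO-RA and 96.9, 95.6 and 99.1 CPM in KO-O2. Its hyperoxia log2 difference was 0.062 ± 0.045 (SE, 95% interval -0.034 to 0.16) in wild-type mice and -0.015 ± 0.052 (95% interval -0.13 to 0.10) in knockout mice.

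Epas1, which encodes the HIF-2 alpha subunit and is strongly expressed in endothelium, was at 168, 145, 135 and 153 CPM in WT-RA and 158, 155, 152 and 163 CPM in WT-O2. In KO-RA it was at 133, 138 and 133 CPM and in KO-O2 at 158, 142 and 184 CPM. All 3 KO-O2 mice were above all 3 KO-RA mice, while the wild-type groups overlapped. The log2 difference was 0.26 ± 0.089 in knockout mice (95% interval 0.07 to 0.45, edgeR q = 0.874) and 0.067 ± 0.077 in wild-type mice (q = 0.792), and the interaction of genotype and exposure was 0.19 ± 0.12 (q = 1). The sum of 5 endothelial markers was 133 to 156 CPM in KO-RA and 156, 123 and 180.0 CPM in KO-O2, in the order of the mice, with mouse GSD495 highest and GSD494 lowest as for Epas1. The part of these cells in the result was not tested.

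Hif3a, an alpha subunit with isoforms that restrain the others, was at 14.8, 10.6, 7.10 and 8.57 CPM in WT-RA and 7.18, 9.57, 12.1 and 11.0 CPM in WT-O2. It was at 10.4, 10.8 and 15.9 CPM in KO-RA and 10.8, 9.90 and 13.1 CPM in KO-O2. Its values spread widely within each group. Arnt, the stable partner, was at 35.1, 31.3, 35.4 and 28.5 CPM in WT-RA, 30.8, 28.6, 30.4 and 27.5 CPM in WT-O2, 29.1, 27.8 and 31.5 CPM in KO-RA, and 28.3, 33.2 and 24.3 CPM in KO-O2. All 4 groups overlapped for both genes.

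Among the oxygen sensors, hyperoxia comparisons gave no p below 0.05. Vhl was at 33.3, 34.2, 34.2 and 34.4 CPM in WT-RA, 37.4, 33.7, 33.4 and 32.6 CPM in WT-O2, 39.3, 36.0 and 39.5 CPM in KO-RA, and 40.1, 37.6 and 41.1 CPM in KO-O2. Egln1, the main hydroxylase of the HIF alpha subunit, was at 71.2, 72.6, 74.3 and 77.2 CPM in WT-RA, 74.1, 83.3, 75.5 and 80.6 CPM in WT-O2, 78.7, 71.2 and 77.8 CPM in KO-RA, and 76.7, 71.2 and 81.5 CPM in KO-O2. Every knockout library was above every room air wild-type library for Vhl, whereas Egln1 overlapped in all groups.

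Egln2 was at 52.9, 54.5, 61.1 and 57.6 CPM in WT-RA, 48.6, 49.1, 56.3 and 56.4 CPM in WT-O2, 52.4, 53.7 and 55.0 CPM in KO-RA, and 55.3, 49.9 and 51.4 CPM in KO-O2. Egln3, a hydroxylase that is itself a HIF target, was at 6.47, 8.28, 9.51 and 8.07 CPM in WT-RA and 8.02, 7.89, 6.80 and 10.2 CPM in WT-O2. In KO-RA it was at 5.05, 4.97 and 5.59 CPM, and in KO-O2 at 5.62, 5.65 and 5.63 CPM. Egln3 was therefore lower in every knockout library than in every wild-type library, and within each genotype the hyperoxia log2 differences were 0.024 ± 0.13 (wild-type) and 0.11 ± 0.16 (knockout).

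Glucose entry was examined next. Slc2a3, the neuronal glucose transporter, and Hk1, the main brain hexokinase, had hyperoxia log2 differences between 0.024 and 0.12. Without mouse GSD408 the wild-type value of Slc2a3 was 0.17 (edgeR q = 0.394), with an unadjusted p below 0.05. Hk2, the inducible hexokinase, was at 5.49, 5.95, 4.81 and 5.06 CPM in WT-RA and 5.42, 7.96, 6.20 and 11.5 CPM in WT-O2. In KO-RA it was at 9.21, 7.56 and 6.80 CPM, and in KO-O2 at 8.91, 8.77 and 11.1 CPM. Mouse GSD408 was far above the other WT-O2 mice and GSD404 was within the WT-RA range. The log2 difference was 0.54 ± 0.20 in wild-type mice (95% interval 0.13 to 0.96, edgeR q = 0.271) and 0.29 ± 0.22 in knockout mice (95% interval -0.18 to 0.76, q = 0.997). Without mouse GSD408 the wild-type value was 0.29 (q = 0.473), with p above 0.05.

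Pfkfb3 makes the bisphosphate that activates phosphofructokinase and is a sensitive HIF target. Its values were 29.0, 29.1, 28.2 and 26.1 CPM in WT-RA and 31.4, 45.6, 26.8 and 67.5 CPM in WT-O2. They were 35.7, 30.2 and 34.5 CPM in KO-RA and 51.3, 37.5 and 49.6 CPM in KO-O2. WT-O2 mice GSD404, GSD405 and GSD408 were above all WT-RA mice, GSD404 by a little, and GSD406 was within their range, and in knockout mice the groups did not overlap. In wild-type mice the log2 difference was 0.61 ± 0.21 (95% interval 0.15 to 1.06, edgeR q = 0.252), and in knockout mice 0.46 ± 0.24 (95% interval -0.06 to 0.98, q = 0.997). It was 0.30 (q = 0.44) in wild-type mice without GSD408, again with p above 0.05. Pfkfb4, a related enzyme, had log2 differences of 0.072 and -0.13, with p above 0.1 in both.

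**Figure D2:**
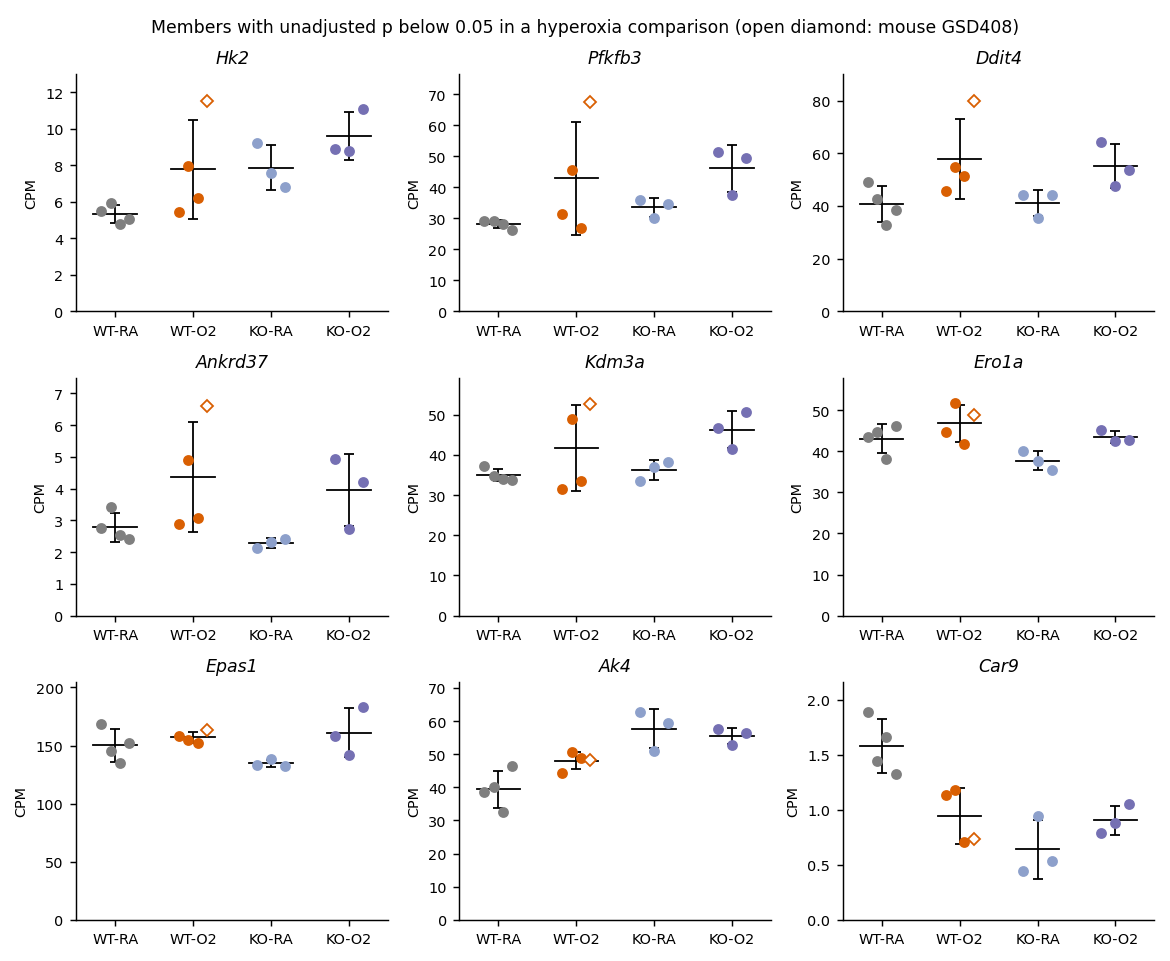
CPM (vertical axes, from 0) of the 9 members with an unadjusted p below 0.05 in WT-O2 vs. WT-RA or KO-O2 vs. KO-RA, by group (horizontal axes), with 1 point per mouse, an open diamond for mouse GSD408, and bars for the mean and SD. The WT-O2 points of Hk2, Pfkfb3, Ankrd37 and Kdm3a spread upward from the room air range, to 11.5 CPM for Hk2 and 67.5 CPM for Pfkfb3 in mouse GSD408.

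The steps from glucose phosphate to pyruvate stayed within the 25% threshold in either genotype. These were Gpi1 (glucose phosphate isomerase), Pfkl and Pfkp (phosphofructokinase), Aldoa (aldolase), Tpi1 (triose phosphate isomerase), Gapdh, Pgk1, Pgam1, Eno1 (enolase) and Pkm (pyruvate kinase), with Ldha (lactate dehydrogenase) and Pdk1 (the kinase that restrains pyruvate dehydrogenase) after them. Over these 12 genes, the 95% intervals of the hyperoxia log2 difference all lay between -0.28 and 0.27 in wild-type mice and between -0.30 and 0.26 in knockout mice, inside the threshold of 0.32, without adjustment for the number of genes. Without GSD408, 11 of the 12 wild-type log2 differences were below 0, from -0.19 (Eno1) to 0.081 (Pdk1), with Eno1 (q = 0.21) and Pgk1 (q = 0.391) at an unadjusted p below 0.05 and none called. With all mice, the smallest q was 0.519 in wild-type mice, for Pgk1, and 0.997 in knockout mice.

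Gapdh was at 2355, 2229, 2411 and 2416 CPM in WT-RA, 2053, 2065, 2327 and 2438 CPM in WT-O2, 2353, 2434 and 2267 CPM in KO-RA, and 2194, 2046 and 2221 CPM in KO-O2. All KO-O2 values were below all KO-RA values, and the wild-type groups overlapped. Ldha was at 209.6, 265, 353 and 305 CPM in WT-RA, 277, 282, 257 and 292 CPM in WT-O2, 278, 288 and 275 CPM in KO-RA, and 296, 259.9 and 274 CPM in KO-O2. Its widest spread was among the room air wild-type mice, where 353 CPM in GSD400 was 1.69 times the value in GSD398. The second Aldoa row, at 0.873 to 1.69 CPM, had log2 differences of 0.12 (95% interval -0.31 to 0.55) and 0.41 (95% interval -0.087 to 0.92). Related copies were sought only by symbol, as the parent name with a suffix, plus Eno1b and Gapdhs. The counts of those found were at most 0.319% of the parent gene (Gapdh, with Gapdhs taken as a copy). Pseudogenes under other symbols were not counted, and an estimate of this kind can share reads among near-identical sequences.

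**Figure D3:**
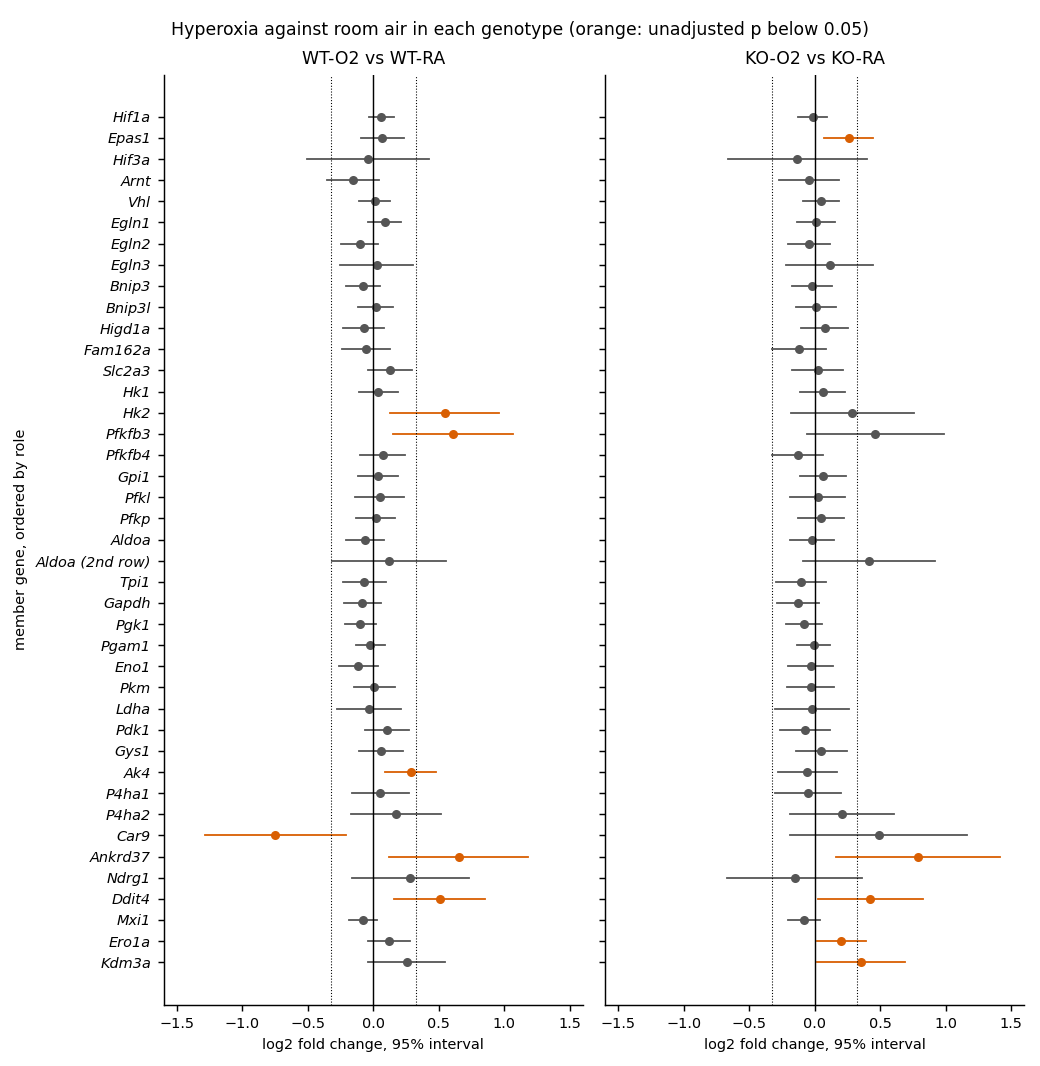
Log2 fold change with its 95% interval (horizontal axes) for each of the 41 member rows (vertical axis, by role) in WT-O2 vs. WT-RA (left) and KO-O2 vs. KO-RA (right). Orange rows have an unadjusted p below 0.05 and dotted lines mark a log2 difference of 0.32 in either direction. The rows from Gpi1 to Pdk1, other than the second Aldoa row, lie within the dotted lines in both panels.

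The mitochondrial targets stayed near their room air levels as well. Bnip3 and Bnip3l are receptors for mitophagy, Higd1a sits in the inner membrane and Fam162a is a mitochondrial protein induced by hypoxia. Their hyperoxia log2 differences were -0.08 to 0.02 in wild-type and -0.12 to 0.08 in knockout mice, with 0 of 4 at a p below 0.05 in either. Gys1 (glycogen synthase) and the collagen prolyl hydroxylase subunits P4ha1 and P4ha2 had p above 0.2 in both genotypes, and the wild-type value of P4ha2 went from 0.17 to -0.0024 without GSD408.

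Ankrd37, a small ankyrin repeat protein and direct HIF target, was at 2.76, 3.42, 2.54 and 2.40 CPM in WT-RA and 2.89, 4.91, 3.08 and 6.59 CPM in WT-O2. In KO-RA it was at 2.12, 2.31 and 2.42 CPM and in KO-O2 at 4.94, 2.71 and 4.20 CPM. The 2 highest wild-type values were again GSD408 and GSD405, and KO-O2 did not overlap KO-RA. The log2 difference was 0.65 ± 0.25 in wild-type mice (95% interval 0.12 to 1.18, edgeR q = 0.301) and 0.79 ± 0.29 in knockout mice (95% interval 0.16 to 1.42, q = 0.956). Without GSD408 the wild-type value was 0.38 (q = 0.533), with p above 0.1. Ankrd37 exons overlap those of Lrp2bp and Ufsp2 on the opposite strand, and 17 of the 41 member rows overlap some other gene in GENCODE M21. Whether the counting used strand is not given in the sources used here, and without it such reads cannot be told apart.

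Ddit4, an inhibitor of mTOR signalling that responds to hypoxia and to glucocorticoids, was at 49.2, 42.6, 32.9 and 38.3 CPM in WT-RA and 45.5, 54.8, 51.4 and 79.7 CPM in WT-O2. Its values were 44.1, 35.3 and 44.0 CPM in KO-RA and 64.1, 47.6 and 53.8 CPM in KO-O2. Of the WT-O2 mice only GSD404 was within the WT-RA range, and the knockout groups did not overlap. Its log2 difference was 0.51 ± 0.16 in wild-type mice (95% interval 0.16 to 0.85, edgeR q = 0.216) and 0.42 ± 0.19 in knockout mice (95% interval 0.023 to 0.83, q = 0.997). DESeq2 called it in wild-type mice (q = 0.0639). Without GSD408 the edgeR value was 0.31 (q = 0.356), with p still below 0.05.

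Kdm3a, a histone demethylase, was at 37.1, 34.8, 34.1 and 33.7 CPM in WT-RA, 31.5, 48.8, 33.5 and 52.7 CPM in WT-O2, 33.4, 37.0 and 38.3 CPM in KO-RA, and 46.6, 41.5 and 50.7 CPM in KO-O2. Ero1a, an oxidase of disulfide formation in the endoplasmic reticulum, was at 43.5, 44.7, 38.1 and 46.3 CPM, 44.8, 51.9, 41.7 and 48.9 CPM, 40.2, 37.6 and 35.5 CPM, and 45.1, 42.5 and 42.8 CPM in the same groups. In both, KO-O2 lay above KO-RA without overlap, and WT-O2 overlapped WT-RA. The knockout log2 differences were 0.35 ± 0.16 for Kdm3a (95% interval 0.016 to 0.69) and 0.20 ± 0.087 for Ero1a (95% interval 0.018 to 0.39), each with edgeR q = 0.997. In wild-type mice they were 0.25 ± 0.14 (q = 0.485), or 0.12 without GSD408, and 0.12 ± 0.075 (q = 0.579). Without the mice with the fewest choroid plexus reads, GSD489 and GSD494, the p of Kdm3a in knockout mice was above 0.05. Mxi1, an antagonist of MYC, had log2 differences of -0.079 and -0.081, and Ndrg1, a stress-responsive gene that is also high in myelinating cells, had 0.28 (q = 0.646), or 0.14 without GSD408, and -0.15 (q = 0.997).

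Car9, a membrane carbonic anhydrase and one of the most selective HIF targets, had a difference of the opposite sign in wild-type mice. It was at 1.89, 1.44, 1.66 and 1.33 CPM in WT-RA and 1.14, 1.18, 0.708 and 0.736 CPM in WT-O2. In KO-RA it was at 0.446, 0.944 and 0.534 CPM and in KO-O2 at 0.788, 0.880 and 1.05 CPM. All WT-RA mice were above all other mice. The log2 difference was -0.75 ± 0.25 in WT-O2 vs. WT-RA (95% interval -1.29 to -0.21, edgeR q = 0.237) and 0.49 ± 0.32 in KO-O2 vs. KO-RA (95% interval -0.19 to 1.17, q = 0.997). Without GSD408 the wild-type value was -0.64 (q = 0.356), with p still below 0.05. These values rest on 12 to 52 rounded counts per library, so each carries a large counting error, and an antisense gene model overlaps Car9.

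Cell and tissue markers differed in the same wild-type comparison. In WT-O2 vs. WT-RA, 5 of 5 erythroid markers were on the lower side (median log2 difference -0.60, 4 at an unadjusted p below 0.05), as were 5 of 5 oligodendrocyte markers (median -0.63, 1 at this p), and 5 of 5 astrocyte markers were on the higher side (median 0.11, 2 at this p). Their summed levels were 279 to 343 CPM in WT-RA and 180.5 to 247 CPM in WT-O2 for erythroid, 6639 to 16657 CPM and 4176 to 11026 CPM for oligodendrocyte, and 1193 to 1415 CPM and 1414 to 1527 CPM for astrocyte markers. Of the hippocampal markers, 7 of 8 were on the higher side (median 0.25, 2 at an unadjusted p below 0.05). Neuron markers were lower for 3 of 4 (median -0.067, 2 at this p). Both oligodendrocyte precursor markers were higher (median 0.18, 1 at this p). Choroid plexus markers were lower for 5 of 5 (median -0.29) and striatal markers for 6 of 7 (median -0.15), with 0 at this p in either list. No marker of these lists was called or at 0 in any library, and their part in Car9 and the members that were higher was not tested.

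Single mice stood at the ends of the hyperoxia groups for many members. Over all 41 members, GSD408 was the highest WT-O2 mouse for 68.3% (31.1% of all tested genes) and GSD404 the lowest for 51.2% (30.5% of all). KO-O2 mouse GSD494 was the lowest of its group for 68.3% (37.8% of all). Several marker sums had the same ends, and others the reverse. Hippocampal (965 and 785 CPM) and astrocyte markers (1527 and 1414 CPM) were highest in GSD404 and lowest in GSD408 within WT-O2. In WT-O2, oligodendrocyte (4176 and 11026 CPM), striatal (314 and 740 CPM) and choroid plexus markers (973 and 1479.8 CPM) were lowest in GSD404 and highest in GSD408. Endothelial markers, at 168, 169, 149 and 194 CPM, were highest in GSD408 and lowest in GSD406, and in KO-O2 they were lowest in GSD494. The part of these cells in the result was not tested. The largest ratio of the highest to the lowest mouse of a group was 2.52 in WT-O2, for Pfkfb3, and 2.51 in WT-RA, for Ndrg1.

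Genotype comparisons gave the only called members. In KO-RA vs. WT-RA, 3 of 41 members were called (10.4% of all tested genes were), Egln3 and Car9 lower and Ak4 higher. A p below 0.05 was found for 8 of 41 members (23.5% of all) and groups that did not overlap for 11 (19.6% of all). In KO-O2 vs. WT-O2, 2 members were called (6.86% of all), Egln3 and Slc2a3, both lower, with 5 at p below 0.05 (18.7% of all) and 5 without overlap (19% of all). Every one of these shares except that of non-overlap in room air was below that of all tested genes.

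Egln3 fell in knockout mice, with a log2 difference of -0.64 ± 0.14 in room air (95% interval -0.94 to -0.33, edgeR q = 0.0121) and -0.55 ± 0.14 under hyperoxia (95% interval -0.85 to -0.24, q = 0.0387). The second call was lost without WT-O2 mouse GSD408, at -0.42 (q = 0.115), and without KO-O2 mouse GSD491, GSD494 or GSD495, with q from 0.104 to 0.125. Ak4, a mitochondrial adenylate kinase, was at 38.4, 40.1, 32.7 and 46.4 CPM in WT-RA and 62.7, 51.0 and 59.5 CPM in KO-RA. It was at 44.3, 50.5, 48.8 and 48.3 CPM in WT-O2 and 57.5, 52.8 and 56.4 CPM in KO-O2. All knockout libraries lay above all wild-type libraries. Ak4 rose in room air, with a log2 difference of 0.55 ± 0.10 (95% interval 0.34 to 0.76, edgeR q = 0.00295), and the difference under hyperoxia was 0.21 ± 0.10 (q = 0.265, not called). In WT-O2 vs. WT-RA the log2 difference of Ak4 was 0.28 ± 0.092 (q = 0.218), and in KO-O2 vs. KO-RA it was -0.055 ± 0.11 (q = 0.997).

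Car9 fell in KO-RA, with a log2 difference of -1.29 ± 0.29 (95% interval -1.91 to -0.67, edgeR q = 0.0109), and the difference between the hyperoxia groups was -0.054 ± 0.29 (95% interval -0.66 to 0.56). Without mice GSD489 and GSD494 the call in room air was kept, at -1.08 (q = 0.0845). Slc2a3 was at 125, 136, 144 and 164 CPM in WT-RA, 156, 166, 158 and 140.5 CPM in WT-O2, 128, 114 and 121 CPM in KO-RA, and 117, 125 and 128 CPM in KO-O2. No KO-O2 mouse reached the WT-O2 range, whereas the room air groups overlapped at the edge. Its log2 difference was -0.33 ± 0.086 under hyperoxia (95% interval -0.52 to -0.15, edgeR q = 0.0328) and -0.23 ± 0.085 in room air (q = 0.104, not called). The first value is near the threshold of size, and the call was lost with DESeq2 (-0.32, q = 0.00799) and without mouse GSD405, GSD406 or GSD491, at -0.30, -0.32 and -0.30.

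Vhl was called in neither genotype comparison, with log2 differences of 0.17 (q = 0.0957) and 0.21 (q = 0.0596), below the threshold of size. Pfkl had 0.24 (q = 0.123) and 0.21 (q = 0.222). Hk2 had 0.56 in room air (edgeR q = 0.112) and 0.30 under hyperoxia (q = 0.481), and DESeq2 called it in room air (q = 0.0618). Without GSD408, edgeR called Hk2, Slc2a3 and Pfkl in KO-O2 vs. WT-O2. In that comparison Pfkfb3 went from 0.11 to 0.42 without GSD408 (edgeR q = 0.2) and was not called.

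**Figure D4:**
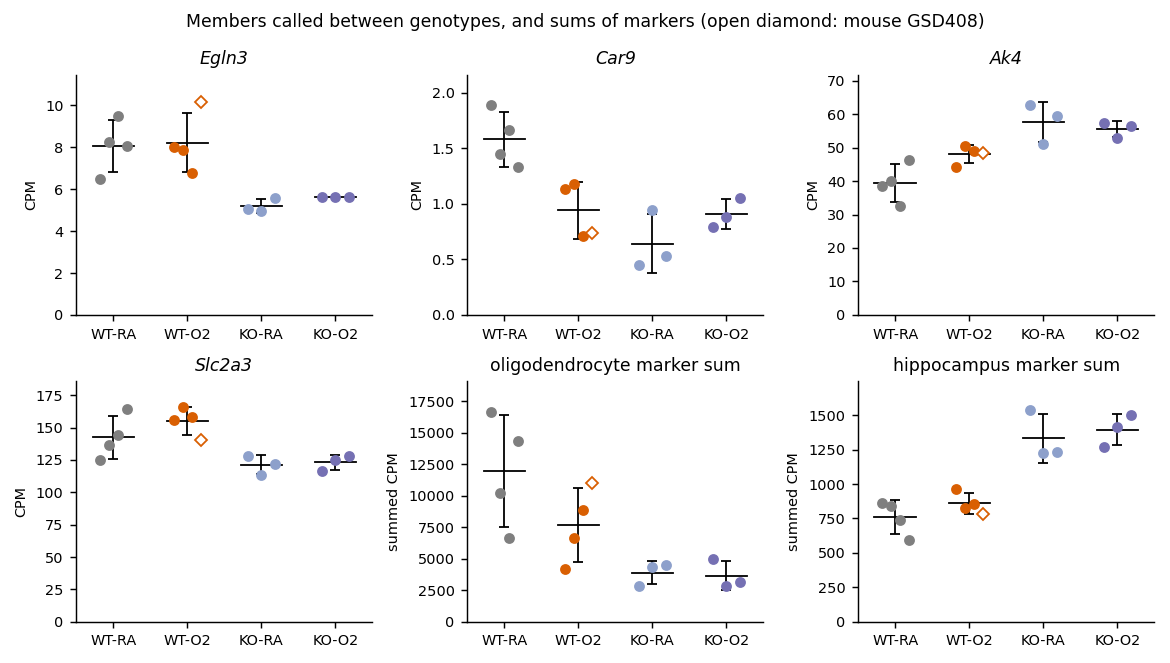
CPM (vertical axes, from 0) of the 4 members called between genotypes, and summed CPM of 5 oligodendrocyte and 8 hippocampus markers, by group (horizontal axes), with 1 point per mouse, an open diamond for GSD408, and bars for the mean and SD. Egln3 is lower and Ak4 higher in all 6 knockout libraries, and the oligodendrocyte sum is at most 4953 CPM in them against 4176 to 16657 CPM in wild-type libraries.

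The tissue markers moved with genotype alongside these members. All 5 oligodendrocyte and all 7 striatal markers were called lower in both knockout comparisons, as were 4 of 6 thalamic markers in each. All 8 hippocampal markers were called higher in KO-RA and 5 of 8 in KO-O2. Astrocyte markers summed to 1193 to 1527 CPM in wild-type and 1615 to 1824 CPM in knockout libraries, without overlap, as for Ak4. Of the 5 markers, 2 were called higher in KO-RA and 1 in KO-O2. Slc1a3 was the largest part of the sum, with means of 567 CPM in WT-RA and 792 CPM in KO-RA. Aldh1l1 went the other way, with means of 53.8 CPM in WT-RA and 46.4 CPM in KO-RA. In each genotype comparison, 1 of 5 was lower at an unadjusted p below 0.05. Thalamic markers summed to 66.9 to 510 CPM in wild-type and 65.8 to 87.7 CPM in knockout libraries, and 1 of the 6 was at 0 in some library. The part of tissue composition in Egln3, Ak4, Car9 and Slc2a3 was not tested.

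No member passed the threshold for a difference in hyperoxia response between the 2 genotypes. In the interaction test 0 of 41 members were called by edgeR and 0 by DESeq2 (0% of all tested genes by edgeR), and 2 had an unadjusted p below 0.05 (4.05% of all). These were Car9, whose hyperoxia difference was higher in knockout mice by 1.24 ± 0.40 on the log2 scale (95% interval 0.37 to 2.10), and Ak4, at -0.34 ± 0.14 (95% interval -0.64 to -0.042), each with edgeR q = 1. Both of these members were also among the 3 called in KO-RA vs. WT-RA, and the room air mice enter both tests. The other called member, Egln3, had no interaction p below 0.05. For Pfkfb3, Ddit4 and Ankrd37 the 2 genotypes gave interaction values of -0.15 ± 0.32, -0.082 ± 0.25 and 0.14 ± 0.38, each with q = 1.

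Genes of the same pathways outside the set were counted from 2 further lists. Of 34 other genes of glucose transport, glycolysis and pyruvate use, 32 passed the filter. None of the 32 was called after hyperoxia by edgeR or DESeq2 in either genotype, and 0.643% and 0.012% of all tested genes were called by edgeR. At a p below 0.05, 2 were higher and 1 lower in wild-type mice (5.69% and 6.5% of all) and 0 in knockout mice. Slc2a1, the glucose transporter of the blood-brain barrier, was at 105, 75.2, 59.2 and 74.6 CPM in WT-RA, 70.8, 100.2, 84.3 and 133 CPM in WT-O2, 59.0, 66.6 and 68.6 CPM in KO-RA, and 81.0, 68.4 and 104 CPM in KO-O2. Mouse GSD408 was highest here too. Its hyperoxia log2 differences were 0.31 (95% interval -0.10 to 0.72) and 0.39 (95% interval -0.089 to 0.86), and the first was 0.12 without GSD408.

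A further HIF list held 40 other genes, most of them listed as responsive to HIF and some, such as Hif1an and Arnt2, as components of the pathway. Of these, 39 passed the filter, and here calls were made. In WT-O2 vs. WT-RA 5 of 39 were called, all higher (0.643% of all tested genes were), and DESeq2 called 8. At a p below 0.05, 13 were higher (5.69% of all) and 2 lower (6.5% of all). In KO-O2 vs. KO-RA 0 were called by edgeR (0.012% of all) and 3 by DESeq2, with 9 higher (2.29% of all) and 2 lower (2.57% of all) at a p below 0.05. The median log2 difference was 0.07 in wild-type and 0.02 in knockout mice. This list was chosen with earlier results on several of its genes known, so its count is not independent evidence.

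Adm, the vasodilator peptide adrenomedullin, was at 1.35, 1.37, 1.52 and 1.29 CPM in WT-RA, 3.30, 5.16, 2.44 and 8.41 CPM in WT-O2, 0.557, 1.05 and 1.32 CPM in KO-RA, and 6.44, 3.26 and 4.95 CPM in KO-O2. Depp1, a stress-responsive target of FoxO factors, was at 2.25, 1.87, 0.813 and 1.51 CPM, 7.99, 8.57, 6.80 and 13.0 CPM, 1.08, 0.350 and 2.92 CPM, and 8.45, 8.22 and 6.94 CPM in the same groups. Every hyperoxia mouse was above every room air mouse for both genes, in each genotype. The log2 differences were 1.80 ± 0.35 for Adm (edgeR q = 0.0612) and 2.50 ± 0.41 for Depp1 (q = 0.0284) in wild-type mice. In knockout mice they were 2.32 ± 0.42 (q = 0.186) and 2.44 ± 0.47 (q = 0.271), which edgeR did not call and DESeq2 did.

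Edn1 (endothelin), Bhlhe40 (a transcriptional repressor of the clock) and Ppp1r3c (a subunit that brings a phosphatase to glycogen) were the other genes that rose, with log2 differences of 1.30 (edgeR q = 0.0574), 0.68 (q = 0.0304) and 0.80 (q = 0.0758) in wild-type mice. In knockout mice they were 1.20 (q = 0.66), 0.51 (q = 0.66) and 0.75 (q = 0.726). Without mouse GSD408 the wild-type calls were Edn1, Bhlhe40, Adm and Depp1, and with it counted as room air there were 0. Without mouse GSD405 or in a fit of the 2 groups alone, only Depp1 was called. The count was 2 without GSD399 and 3 without GSD404. In knockout mice, edgeR called Adm without GSD408, Depp1 without GSD496 and both with no filter on low counts.

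**Figure D5:**
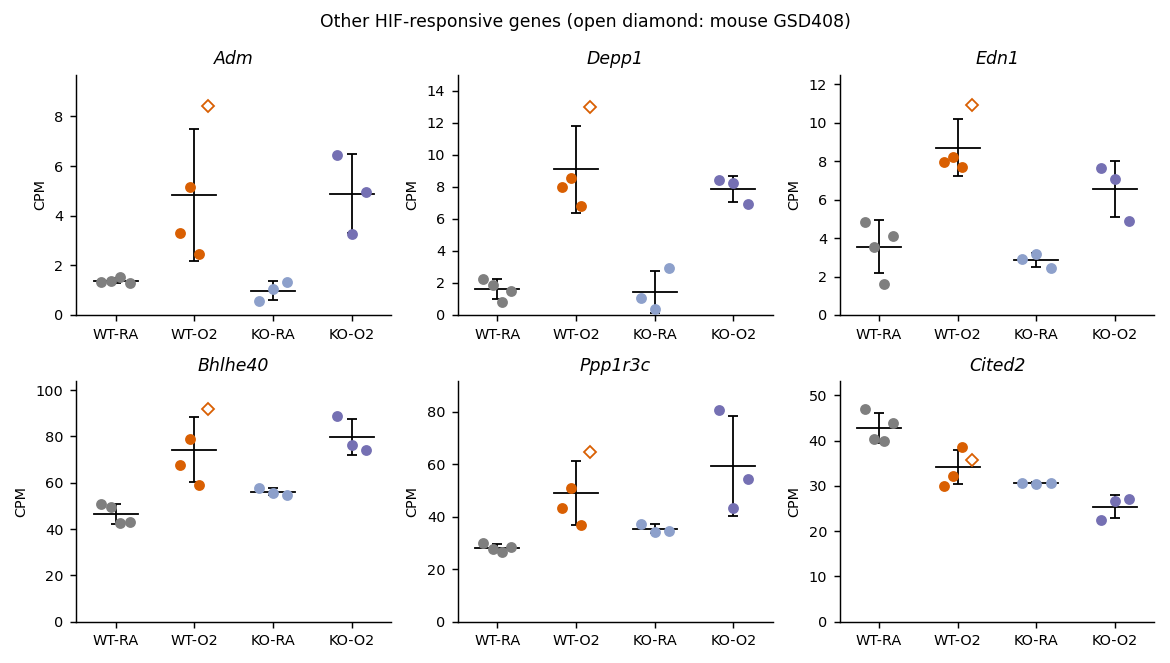
CPM (vertical axes, from 0) by group (horizontal axes) of the 5 HIF-responsive genes outside the set that rose in wild-type mice after hyperoxia, and of Cited2, with 1 point per mouse, an open diamond for GSD408, and bars for the mean and SD. For Adm and Depp1, all hyperoxia points lie above all room air points of the same genotype.

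Between genotypes, 5 of these 39 genes were called in room air (3 higher and 2 lower in KO-RA, against 10.4% of all tested genes) and 4 under hyperoxia (1 higher and 3 lower in KO-O2, against 6.86% of all). Cited2, which competes with HIF for a coactivator, was at 47.0, 40.3, 39.9 and 43.8 CPM in WT-RA, 30.1, 32.2, 38.6 and 35.7 CPM in WT-O2, 30.6, 30.3 and 30.7 CPM in KO-RA, and 22.4, 26.6 and 27.0 CPM in KO-O2. The knockout libraries were lower within each exposure, with log2 differences of -0.48 ± 0.091 in room air (edgeR q = 0.00406) and -0.43 ± 0.092 under hyperoxia (q = 0.0123). Cited2 was also lower after hyperoxia, without overlap in either genotype. Its log2 difference in WT-O2 vs. WT-RA was -0.32, and it was called in neither hyperoxia comparison by edgeR. Car12, Stc2 and Cxcr4 were called higher and Trf, transferrin, lower in room air, and under hyperoxia Cxcr4 was called higher and Stc1 and Trf lower. The count under hyperoxia was 1, Cited2, without KO-O2 mouse GSD494 or GSD495, and 2 without GSD405, GSD408 or GSD491. In room air it was 8 without GSD400 and 3 without GSD401 or GSD490. Trf is made by oligodendrocytes, whose markers were lower in the same libraries, and their part in the result was not tested.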

How the data were processed

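Hippocampal RNA from 14 mice was sequenced with 1 library per mouse. The authors deposited estimated counts per gene, made with Kallisto on GRCm39 and summed with tximport (scaling and strand setting are not given in the sources used here). Counts were rounded, filtered with filterByExpr, normalized by TMM and fitted in edgeR 4.0.16 (R 4.3.3) with 1 coefficient per group over the 14 libraries. The quasi-likelihood test of edgeR compared groups, with p-values adjusted after Benjamini and Hochberg across 16637 genes. Standard errors and 95% intervals come from this fit. The study used DESeq2 with the same thresholds, and DESeq2 1.42.0 is the alternative here.

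The members and lists were chosen with earlier results of these data known. Members named in full were those called, those with the smallest p in a hyperoxia comparison, and the HIF subunits and sensors. Hk2, Pfkfb3, Kdm3a, Gapdh, Ldha and Slc2a1 were added after their values were seen, as were all settings without mice GSD489 and GSD494 and the values of uncalled genes without GSD408. The labels do not state separate litters, so p-values measure the spread between these mice. No 2 libraries of a group agreed within counting noise. Symbols came from GENCODE M21, and Ero1a through a RefSeq synonym. Alternatives were another test, scaling, low-count filter, group set or threshold, mouse GSD408 as room air, and each mouse left out. A genotype result from the list of other glycolysis genes is not reported here.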

Additional observations from a re-analysis of the deposited data

Results flagged for a closer look

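Of the 82 tests for a mouse standing apart from the other 3 of its wild-type group, 1 was met, which chance alone gives for about 1 in 20 groups. Mxi1, an antagonist of MYC, was at 66.3 CPM in WT-O2 mouse GSD408, while the other WT-O2 mice were at 63.0 to 63.4 CPM. The gap is small against the WT-RA range of 64.8 to 69.6 CPM, which includes the value of GSD408.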

How the results depend on the processing

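In WT-O2 vs. WT-RA the count of members called went from 0 to 1 with DESeq2 (Ddit4) and to between 0 and 1 when each mouse was left out, where Ak4 was called without WT-RA mouse GSD401. In KO-O2 vs. WT-O2 the count of 2 became 1 with DESeq2 or with its size factors in edgeR (Egln3), 1 with mouse GSD408 as room air (Slc2a3), 0 at a fold change of 1.5, 0 without mice GSD489 and GSD494, and 0 to 3 when each mouse was left out, with 0 without KO-O2 mouse GSD491. In the other comparisons the counts stayed within 1.5 times under all settings run. With GSD408 as room air, the wild-type hyperoxia log2 differences turned to -0.0083 for Hk2 and -0.056 for Pfkfb3, and 14 of 41 members changed sign. The signs of Ddit4 (0.059), Ankrd37 (0.033) and Car9 (-0.48) held. Over the other comparisons, at most 11 of 41 members changed sign under any setting, and these had log2 differences of at most 0.26 in size. Counts over all genes moved more, from 107 in wild-type mice to 310 with DESeq2 and 6 with GSD408 as room air. The cause was not tested. No paired analysis was possible because the labels give no shared replicate numbers. Car9, with 12 to 52 counts per library, and the second Aldoa row, with 24 to 45, had the fewest counts of the members and are limited by depth. Whether counting error or the spread between mice limits the other members was not tested.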

Other observations

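In WT-O2, mice GSD405 and GSD408 were the 2 highest for 22 of 39 genes of the HIF list outside the set. Adm, Edn1, Bhlhe40 and Ppp1r3c were among them. The same pair led for 15.8% of all tested genes. For the 41 members, this pair and the pair GSD406 and GSD408 each led for 13, 31.7% of the members, and the second pair led for 24.2% of all tested genes. For the other genes of glycolysis, the first pair led for 4 of 32 and the second for 16 of 32. In KO-O2, mice GSD491 and GSD495 were the 2 highest for 24 of the 39 genes of the HIF list outside the set. They led for 28 of the 41 members (68.3%) and 37.8% of all tested genes. The pairs were noticed after the values were seen and were given no test.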
